A study of Mus musculus with 2 samples.

Results

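The absorptive and regional transcription factors of the gut epithelium were examined in single cells of the mouse ileum. They are 9 genes (Hnf4a, Hnf4g, Cdx1, Cdx2, Klf4, Klf5, Gata4, Gata6 and Maf) of the 27998 genes in the expression matrices, chosen by symbol alone, and all 9 were found. The series holds 2 libraries of C57BL/6 mice aged 8 weeks: one of the wild-type genotype (WT) and one of the TNFAIP8-/- genotype (called Tipe0-/- by the study and TKO here), in which the lipid transfer protein gene Tnfaip8 is deleted. No agent was given and the labels name no tissue-restricted driver of the deletion. Epithelial cells were freed from the ileum with EDTA and made into single cells by enzymes, which the labels give as collagenase and dispase and the study's methods as DNase I and dispase. Cells of 3 mice of a genotype went into 1 library, so the mice cannot be separated, there is 1 sample a genotype, and no test of genotype was possible. Values are counts of unique molecular identifiers (UMIs, each tag standing for 1 captured mRNA molecule), summed over cells and scaled to a total of 1000000 UMIs of the same cells (CPM). The 95% intervals are exact Poisson intervals for a level, exact binomial intervals for a ratio and Clopper-Pearson intervals for a share of cells, and all of them cover counting error only.

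The members belong to the network that makes and keeps the intestinal epithelium. HNF4 proteins are nuclear receptors that bind the enhancers of enterocyte genes for fat absorption and the brush border, and the caudal factors CDX1 and CDX2 give the epithelium its intestinal identity. KLF4 is a brake on division found toward the lumen, whereas its relative KLF5 is found in dividing crypt cells. The zinc finger proteins GATA4 and GATA6 set regional identity, with Gata4 known from the proximal small intestine and Gata6 from its whole length, and MAF is a basic leucine zipper factor of mature enterocytes.

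Stretches upstream of 3 members were available from RefSeq (GRCm38.p6), and are printed because they hold letters that factors of the same network are known to read. Each was the part, outside annotated exons, of the 250 bases before an annotated start, written 5′ to 3′ on the gene's own strand. Capitals mark matches to searched motifs, on either strand.
Hnf4a (downstream start, chr2:163546943-163547154, plus strand): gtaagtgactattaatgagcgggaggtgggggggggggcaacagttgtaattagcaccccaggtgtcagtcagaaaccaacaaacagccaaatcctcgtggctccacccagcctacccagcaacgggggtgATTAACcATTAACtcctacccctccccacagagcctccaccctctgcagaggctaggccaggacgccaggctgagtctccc
Klf4 (chr4:55532476-55532725, minus strand): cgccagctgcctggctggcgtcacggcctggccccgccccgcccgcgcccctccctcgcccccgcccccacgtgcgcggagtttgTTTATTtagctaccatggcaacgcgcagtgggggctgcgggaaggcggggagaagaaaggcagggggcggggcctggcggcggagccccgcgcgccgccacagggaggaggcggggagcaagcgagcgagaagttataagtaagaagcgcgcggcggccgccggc
Cdx2 (chr5:147307271-147307499, minus strand): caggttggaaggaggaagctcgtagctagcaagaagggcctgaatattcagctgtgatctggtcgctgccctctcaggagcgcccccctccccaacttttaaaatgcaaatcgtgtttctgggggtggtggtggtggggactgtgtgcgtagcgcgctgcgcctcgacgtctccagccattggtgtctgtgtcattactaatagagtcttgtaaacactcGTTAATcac
The motifs searched on both strands were AGATAA for GATA factors, TTTATG and TTTATT for CDX, CAAAGTCC for HNF4, GTTAAT for an arm of the HNF1 site, CCACGCCC and CCACACCC for KLF and TGCTGAC for MAF. The Hnf4a stretch held ATTAAC, the reverse complement of GTTAAT, at 81 and 74 bases before the start. GTTAAT itself stood 30 bases before the Cdx2 start, and 6.43% of all 32851 windows held this motif. TTTATT stood 165 bases before the Klf4 start and was present in 18.1% of all windows. The upstream RefSeq start of Hnf4a, 40298 bases away, had AGATAA at 52 bases before it, which 9.99% of windows held. That match ran across the annotated gene start at chr2:163506808, so it lay partly inside an exon. The remaining motifs occurred in 10.8% (TTTATG), 1.2% (CAAAGTCC), 4.79% (CCACGCCC), 3.20% (CCACACCC) and 3.81% (TGCTGAC) of windows and in none of the 4 member windows. The Klf4 window was rich in G and C, at 74% against a median of 52.4% over all windows. Reads were counted at the 3′ end of transcripts, so the 2 starts of Hnf4a could not be told apart in the counts.

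The WT library held 3402 cells with 38127808 UMIs (median 7760 UMIs a cell) and the TKO library 2006 cells with 23897126 UMIs (median 7308). The libraries shared 9 barcodes. UMIs of mitochondrial genes made up 6.59% of the WT and 8.56% of the TKO total, and the median log2 ratio of TKO over WT over all genes was 0.15, so differences are read against that shift. Tnfaip8, the deleted gene, had 372 UMIs in WT (9.76 CPM) and 57 in TKO (2.39 CPM), a log2 ratio of −2.02 (95% interval −2.46 to −1.63). Which exons were deleted is not given in the sources used here, so reads from the 3′ end check the label only in part. Summed markers of other cell types also differed between the libraries: lymphocyte markers stood at 160 CPM in WT and 40.7 CPM in TKO, Paneth cell markers at 85330 and 56025 CPM, tuft cell markers at 151 and 81.1 CPM, and stem cell markers at 583 and 845 CPM. Stromal and endothelial markers were at most 2.7 CPM in either library.

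Over all cells, 8 of the 9 members were abundant enough to compare (at least 50 UMIs in both libraries together), and none of the 8 lay more than 1.5-fold from the median ratio of all genes. Over the 11665 genes compared, 4.23% lay more than 1.5-fold above the median and 6.90% more than 1.5-fold below it. In these sums, fewer cells of a type and less RNA per cell cannot be told apart.
Gata6 stood furthest above the shift of all genes. It had 1933 UMIs in WT and 1686 in TKO, that is 50.7 CPM (48.5 to 53.0) against 70.6 CPM (67.2 to 74.0), with a log2 ratio of 0.48 (0.38 to 0.57). Stem cell markers, which mark the class where Gata6 was highest, were also higher in the TKO sum, and with the same make-up of classes in both libraries the log2 ratio of Gata6 was 0.39. Gata6 was the single member whose interval lay wholly above the median of all genes, where 23.1% of genes did so. At the other end, Cdx1 had 6027 and 3563 UMIs, or 158 CPM (154 to 162) and 149 CPM (144 to 154), and a log2 ratio of −0.08 (−0.14 to −0.02).
Cdx1 and 5 other members (Hnf4a, Cdx2, Klf4, Klf5 and Maf) had intervals wholly below the median, where 27.8% of genes did. Their own ratios were nonetheless close to 0, because the median of all genes was above it. Hnf4a stood at 188 CPM in WT and 195 CPM in TKO (7166 and 4663 UMIs, log2 ratio 0.05, 0.00 to 0.11). Klf5 stood at 181 and 190 CPM (0.07, 0.01 to 0.12) and Cdx2 at 129 and 134 CPM (0.05, −0.01 to 0.12). The direction of small ratios turned with the scaling: scaled by the median ratio of all genes, Hnf4a and Cdx2 came to −0.10, Klf5 to −0.09 and Maf to −0.14.
Klf4 stood at 101 and 98.7 CPM (−0.04, −0.11 to 0.04) and Maf at 122 and 123 CPM (0.01, −0.06 to 0.08). Hnf4g, the less abundant HNF4 gene, stood at 43.3 CPM (41.2 to 45.4) and 50.1 CPM (47.3 to 53.0), with a log2 ratio of 0.21 (0.10 to 0.32) that spanned the median. The median of the 8 log2 ratios was 0.05, against 0.15 over all genes.

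**Figure D1:**
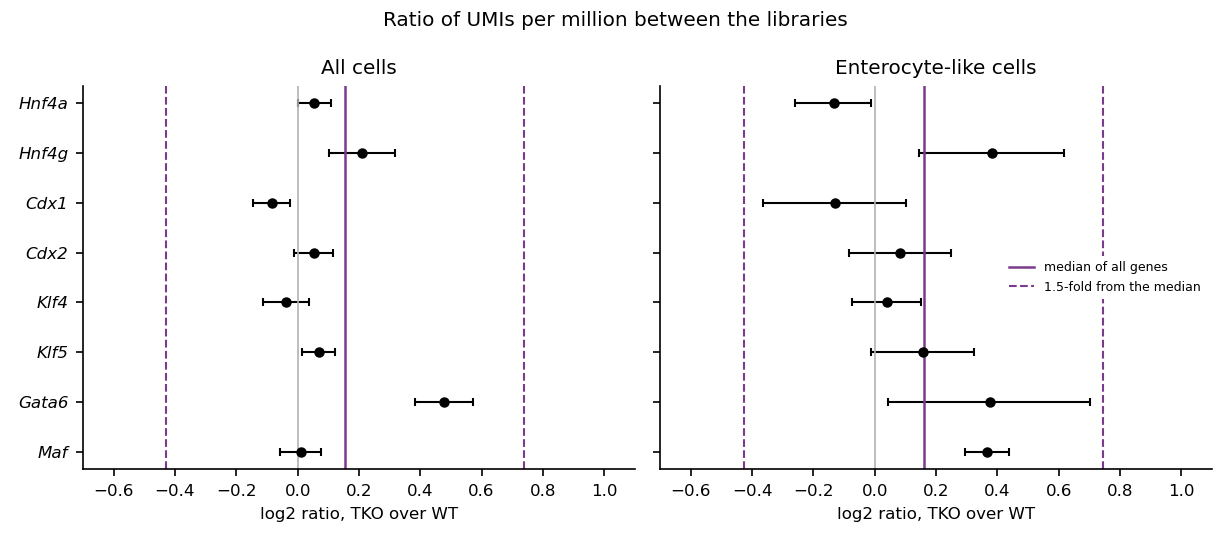
Log2 ratio of TKO over WT (horizontal axis) of each member, over all cells (left) and in enterocyte-like cells (right), with points at the ratio of CPM, bars for the exact binomial 95% interval of counting error, a solid line at the median of all genes and dashed lines 1.5-fold from it; there is 1 library a genotype. Gata6 lies at 0.48 over all cells, clear of the median at 0.15, and no member lies outside the dashed lines in either panel.

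Cells were clustered without the members, so that no member shaped the groups it is read in. The 14 clusters fell into 8 groups named from marker genes, with "-like" for a class read from transcripts alone. Enterocyte-like cells numbered 725 in WT and 391 in TKO, goblet-like 671 and 480, Paneth-like 282 and 137, tuft-like 148 and 48, lymphocyte-like 90 and 18, stem-like 392 and 325 and cycling-like 676 and 436. Most goblet-like cells, 477 in WT and 351 in TKO, were in cluster 1, so goblet-like values are mostly of this cluster. Goblet markers there summed to 24289 and 26690 CPM, against 205107 and 247270 CPM in goblet-like cluster 9. Cycling markers of cluster 1 summed to 3019 and 3352 CPM, against 3845 and 3863 CPM in cycling-like cells. A cluster of 418 and 171 cells led by Gsdmc4 and Slc40a1 met no naming rule and is called unnamed. The cluster with the most enterocyte-like cells differed between the libraries: cluster 7 (led by Sprr2b and Saa1) held 392 WT and 12 TKO cells and cluster 11 (led by Cyp3a25 and Mme) 2 WT and 187 TKO cells, whereas both libraries filled cluster 8 (220 and 137 cells), so enterocyte-like values compare partly different clusters. Cluster 13 of this class, led by Apoa4 and Ada, also held goblet markers: 58 of its 111 WT cells and 36 of its 55 TKO cells had over 5% of their UMIs from goblet marker genes.
The members had distinct orders over the classes. Maf and Klf4 were highest in enterocyte-like cells in both libraries, Gata6 in stem-like cells and Cdx1 in tuft-like cells. The class with the highest Hnf4a, Hnf4g, Cdx2 or Klf5 differed between the libraries, and the intervals of the leading pair of classes overlapped for each of these genes in both libraries. Among the 7 epithelial groups, Paneth-like cells were lowest for each of the 8 members in either library, other than Maf in WT, which was lowest in stem-like cells. In TKO the intervals of Paneth-like and enterocyte-like cells overlapped for Gata6 (41.1 and 41.2 CPM) and Cdx1 (69.0 and 71.6 CPM). Those of stem-like and Paneth-like cells overlapped for Maf in WT (2.51 and 3.58 CPM).

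**Figure D2:**
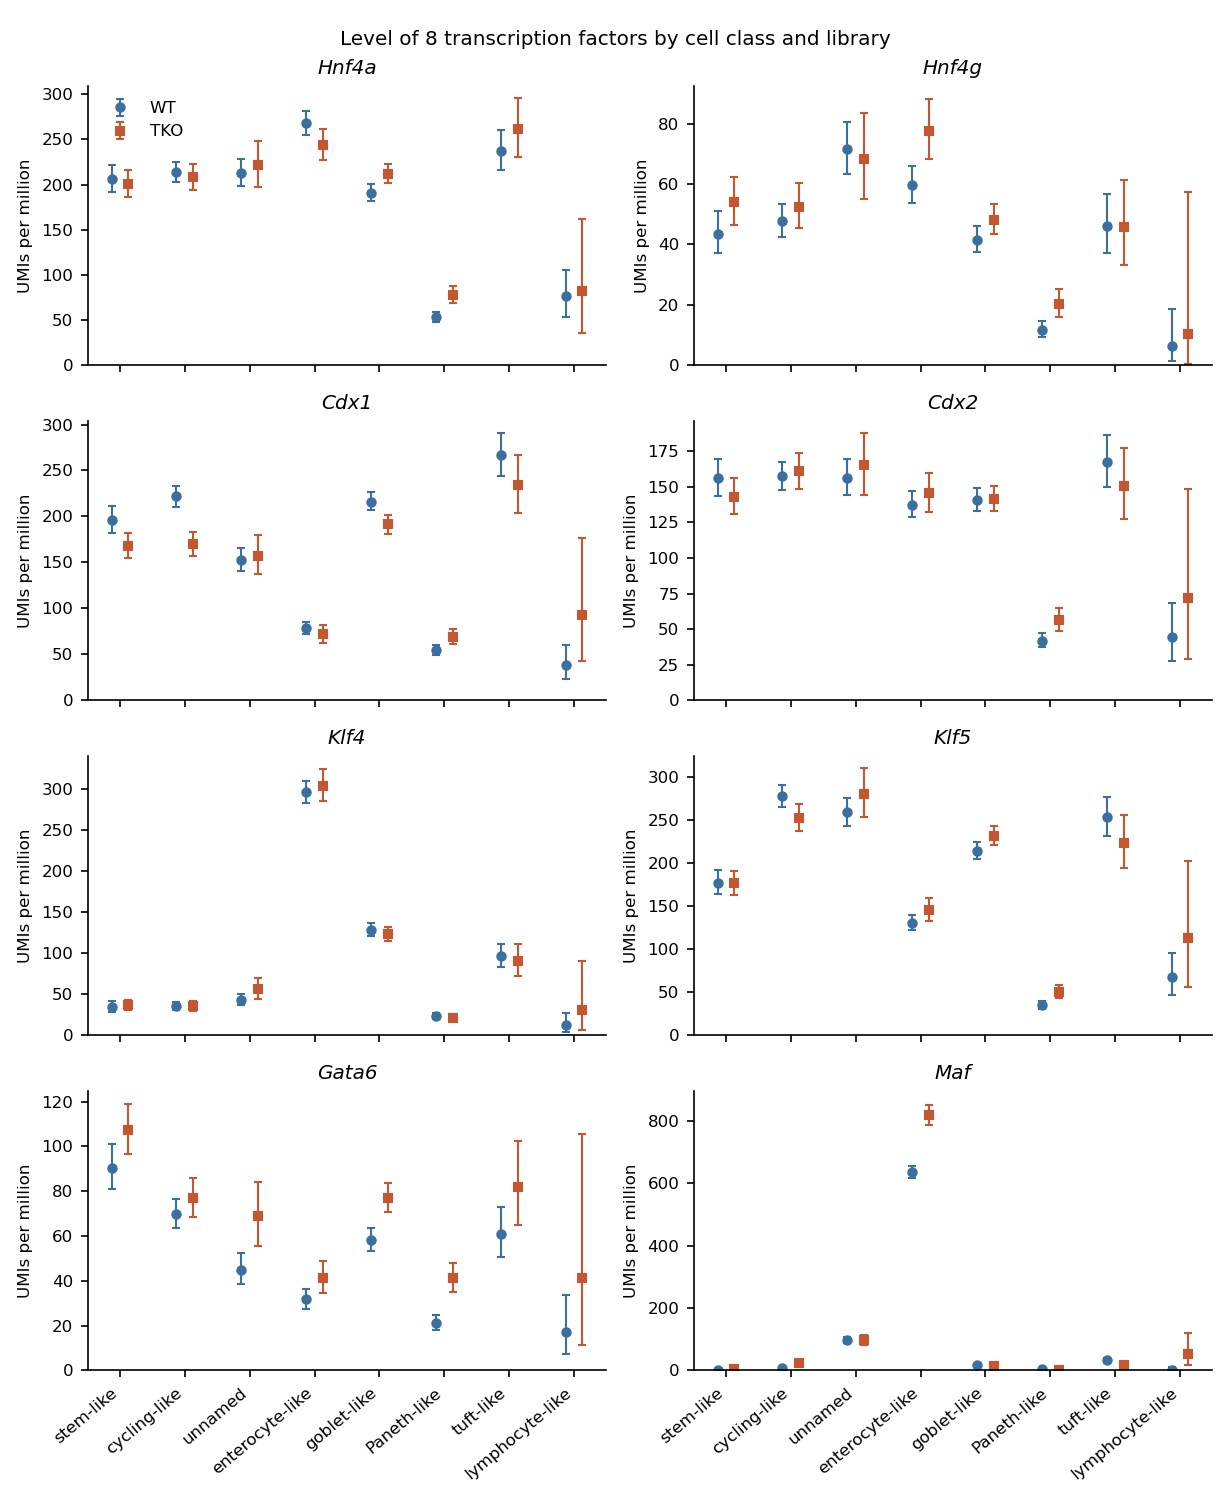
Level of the members in each class of cells (CPM) for WT and TKO, with bars for exact Poisson 95% intervals of counting error and 1 library a genotype. Maf reaches 635 CPM in WT and 819 CPM in TKO enterocyte-like cells and 2.51 and 4.15 CPM in stem-like cells, whereas Hnf4a and Cdx2 stay within a narrower range outside Paneth-like and lymphocyte-like cells.

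In Paneth-like cells, Paneth markers alone took 456053 CPM in WT and 341859 CPM in TKO. Their part in the low level of the members there was not tested. Counted per cell instead, Paneth-like cells held 1.26 (WT) and 2.11 (TKO) UMIs of Hnf4a, against 2.33 and 1.95 in enterocyte-like cells. These counts per cell are not adjusted for depth. Paneth-like cells had a median of 20982 UMIs in WT and 26201 in TKO, against 6817 and 6047 in enterocyte-like cells. Gata6 came to 0.504 and 1.12 UMIs a Paneth-like cell against 0.276 and 0.330 an enterocyte-like cell, so its order was turned on this scale. Cdx1 turned too, at 1.29 and 1.88 UMIs against 0.680 and 0.573, and in TKO so did Cdx2 (1.53 against 1.17) and Klf5 (1.38 against 1.17), like Hnf4a. Klf4 kept its order, with 0.550 and 0.562 UMIs a Paneth-like cell against 2.57 and 2.43 an enterocyte-like cell.
Within classes, 3 values of members lay more than 1.5-fold from the class median of all genes. They were those of Maf in cycling-like cells (above), Maf in tuft-like cells (below) and Klf4 in Paneth-like cells (below). The count was 0 of 8 in enterocyte-like cells, where 14.3% of all genes lay past that fold in either direction, 0 of 8 in goblet-like cells (8.14%), 1 of 7 in Paneth-like cells (11.5%), 1 of 8 in tuft-like cells (15.8%), 0 of 7 in stem-like cells (8.80%), 1 of 8 in cycling-like cells (8.91%) and 0 of 8 in unnamed cells (14.7%).

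Hnf4a (ENSMUSG00000017950, GRCm38 chr2:163506808-163572910, plus strand) encodes the main HNF4 receptor of enterocytes and was seen at similar levels in most epithelial groups. It stood at 268 CPM (255 to 281) in WT and 244 CPM (227 to 262) in TKO enterocyte-like cells. In tuft-like cells it stood at 238 (217 to 260) and 262 CPM (230 to 296). The intervals of these leading classes overlapped in both libraries, so counting error left their order unsettled.
In the other epithelial groups outside Paneth-like cells Hnf4a ranged from 191 CPM in WT goblet-like cells to 222 CPM in unnamed TKO cells. Lymphocyte-like cells, which should lack it, had 76.4 CPM in WT and 82.4 CPM in TKO. When each cell was thinned at random to 3000 UMIs, so that cells of unequal depth could be compared, 51.4% of WT and 47.8% of TKO enterocyte-like cells kept a UMI of Hnf4a, against 13.3% and 22.2% of lymphocyte-like cells. These latter shares serve as the background and rest on 90 and 18 cells. By CPM, Paneth-like cells did not exceed lymphocyte-like cells in Hnf4a, at 52.8 CPM in WT and 77.6 CPM in TKO. Neither did they in Cdx2 (41.9 and 56.4 against 44.6 and 72.1 CPM) or Klf5 (34.9 and 50.8 against 67.9 and 113 CPM). Summed enterocyte markers stood at 718 and 567 CPM in the lymphocyte-like cells, and the source of such UMIs was not tested. The ratio of TKO over WT in enterocyte-like cells was −0.13 on the log2 scale (−0.26 to −0.01), below the class median of 0.16, and in goblet-like cells 0.15 (0.05 to 0.25). Hnf4a overlaps the antisense gene Hnf4aos, and the counting used strand.
Hnf4g (ENSMUSG00000017688, GRCm38 chr3:3508030-3658052, plus strand) encodes the paralog that shares sites with HNF4A and is found mainly in the gut. Its highest class was the unnamed cluster in WT at 71.4 CPM (63.2 to 80.5) and enterocyte-like cells in TKO at 77.7 CPM (68.2 to 88.1). The matching values were 59.6 CPM (53.7 to 65.9) in WT enterocyte-like cells and 68.2 CPM (55.1 to 83.4) in unnamed TKO cells. In enterocyte-like cells Hnf4g was thus higher in TKO, with a log2 ratio of 0.38 (0.14 to 0.62) whose interval spanned the class median of 0.16.
Stem-like cells had 43.6 and 54.0 CPM of Hnf4g and Paneth-like cells 11.6 and 20.1 CPM. In cluster 8, enterocyte-like cells led by Arg2 and Fabp6, it stood at 66.7 and 96.1 CPM (log2 ratio 0.53, 0.15 to 0.90). In cluster 9, goblet-like cells led by Zg16 and Clca1, it was 1 of 2 members more than 1.5-fold above the cluster median, where 8.47% of all genes were. That value rested on 27 WT and 26 TKO UMIs (23.2 and 36.8 CPM, log2 ratio 0.67, −0.17 to 1.5), and its interval included 0.

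Cdx1 (ENSMUSG00000024619, GRCm38 chr18:61018862-61036199, minus strand) and Cdx2 (ENSMUSG00000029646, GRCm38 chr5:147300805-147307270, minus strand) encode the caudal factors of the intestine, CDX2 acting along the whole crypt and villus and CDX1 mostly in the crypt. Cdx1 was highest in tuft-like cells, at 267 CPM (244 to 290) in WT and 234 CPM (204 to 266) in TKO. Cycling-like cells had 222 (211 to 234) and 170 CPM (157 to 183), goblet-like cells 216 and 191 CPM, and stem-like cells 196 and 168 CPM. Enterocyte-like cells had the lowest Cdx1 of these, 78.3 CPM (71.6 to 85.6) and 71.6 CPM (62.5 to 81.6). Lymphocyte-like cells held 38.2 CPM (22.6 to 60.4) in WT and 92.7 CPM (42.4 to 176) in TKO. The TKO enterocyte-like level thus did not exceed that background.
Cdx1 was lower in TKO in cycling-like cells (log2 ratio −0.38, −0.52 to −0.25), stem-like cells (−0.22, −0.39 to −0.06) and goblet-like cells (−0.18, −0.28 to −0.08). Each of these intervals lay below its class median (0.07, 0.06 and 0.09), and by cluster the interval lay below the cluster median in 5 of 11 clusters compared. The share of all genes with as many intervals below was not counted, so this number is not read as particular to Cdx1. None reached 1.5-fold. In Paneth-like cells the ratio had the other sign, 0.35 (0.11 to 0.58), but there the median of all genes was 0.48.
Cdx2 was flatter. Outside Paneth-like and lymphocyte-like cells its CPM ran from 138 (129 to 147) in enterocyte-like to 168 (150 to 187) in tuft-like cells of WT, and from 142 (133 to 151) in goblet-like to 165 (145 to 188) in unnamed cells of TKO. In both libraries the intervals of these classes overlapped at each step of the order. Among clusters its highest level was in cluster 5 (cycling-like, led by Cdc20 and Ube2c), at 188 and 183 CPM. The ratio between libraries was between −0.15 and 0.08 in each of these groups.

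Klf4 (ENSMUSG00000003032, GRCm38 chr4:55527143-55532466, minus strand) and Klf5 (ENSMUSG00000005148, GRCm38 chr14:99298691-99315036, plus strand) differed in order, Klf4 leading in enterocyte-like and Klf5 in cycling-like and unnamed cells, while both were lowest of the epithelial groups in Paneth-like cells. Klf4 stood at 296 CPM (282 to 309) in WT and 304 CPM (285 to 324) in TKO enterocyte-like cells. Goblet-like cells followed with 129 (121 to 136) and 123 CPM (115 to 131), and tuft-like cells with 96.5 (83.2 to 111) and 90.4 CPM (72.4 to 111). Stem-like cells had 34.6 (28.8 to 41.3) and 36.5 CPM (30.3 to 43.5) and cycling-like cells 35.7 and 35.9 CPM, so these classes could not be ranked beyond counting error.
The log2 ratio of Klf4 in enterocyte-like cells was 0.04 (−0.08 to 0.15). It turned to −0.12 without the 62 of 725 WT and 39 of 391 TKO cells over the goblet marker limit, which left 281 and 259 CPM. Cluster 13 had the highest Klf4 of any cluster, 506 CPM in WT and 692 CPM in TKO (0.45, 0.24 to 0.66). Its cells over the goblet limit held 434 and 672 CPM and its other cells 616 and 741 CPM, so Klf4 was high in both kinds of cell. Cluster 9, of goblet-like cells led by Zg16 and Clca1, held 324 and 405 CPM, more than the enterocyte-like class as a whole. The goblet-like cluster 1, led by Id4 and Spdef, held 98.9 and 93.0 CPM. Klf4 is known as a factor of goblet cell maturation as well as of the upper villus.
In Paneth-like cells Klf4 had 155 and 77 UMIs, or 23.1 (19.6 to 27.1) and 20.7 CPM (16.3 to 25.8). Its log2 ratio of −0.16 (−0.57 to 0.24) counted as more than 1.5-fold below the class median only because that median was 0.48, and summed Paneth markers were lower in the same TKO cells; their part in the result was not tested.
Klf5 was highest in cycling-like and unnamed cells. Cycling-like cells had 278 CPM (265 to 291) in WT and 253 CPM (237 to 269) in TKO, and unnamed cells 259 (243 to 275) and 281 CPM (253 to 310), with overlapping intervals in both libraries. Within the cycling-like class it reached 352 and 328 CPM in cluster 5. Tuft-like, goblet-like and stem-like cells followed, the last with 177 (164 to 192) and 176 CPM (163 to 191). Enterocyte-like cells had 131 (122 to 140) and 146 CPM (133 to 160). The ratio in cycling-like cells was −0.14 (−0.25 to −0.02), and no class put Klf5 past 1.5-fold.

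Gata4 (ENSMUSG00000021944, GRCm38 chr14:63198922-63271692, minus strand), the mark of the proximal gut, was all but missing from both libraries. It had 5 UMIs in WT (0.131 CPM, 0.0426 to 0.306) and 4 in TKO (0.167 CPM, 0.0456 to 0.429). By class the UMIs were 3 and 0 in enterocyte-like cells, 1 and 1 in cycling-like cells, and at most 1 a library elsewhere. The 0 of 391 TKO enterocyte-like cells allows a share with a UMI of up to 0.767% and a level of up to 0.959 CPM, limits taken as 3 counts of the total in place of the intervals above. Paneth-like cells had none in either library, which allows up to 0.448 CPM in WT and 0.806 CPM in TKO. At these counts no difference between the genotypes or classes was detectable, and ileal tissue as labelled is a part of the gut where Gata4 is known to be low.
Gata6 (ENSMUSG00000005836, GRCm38 chr18:11052064-11085635, plus strand), the GATA factor of the whole small intestine, was the member that differed between the libraries in most groups. Stem-like cells were highest, with 90.5 CPM (80.9 to 101) in WT and 107 CPM (96.6 to 119) in TKO. Cycling-like cells had 70.0 (63.7 to 76.7) and 76.9 CPM (68.4 to 86.1) and tuft-like cells 60.9 (50.5 to 72.9) and 82.1 CPM (65.0 to 102). Enterocyte-like cells had 31.8 (27.5 to 36.5) and 41.2 CPM (34.4 to 49.0), so Gata6, like Cdx1, was higher in stem-like and cycling-like than in enterocyte-like cells. Paneth-like cells, also of the crypt, were not higher.
Gata6 was higher in TKO in each of the 8 groups, by log2 ratios of 0.14 (−0.08 to 0.35) in cycling-like, 0.25 (0.03 to 0.47) in stem-like, 0.38 (0.04 to 0.70) in enterocyte-like, 0.40 (0.23 to 0.58) in goblet-like, 0.43 (0.00 to 0.85) in tuft-like, 0.62 (0.24 to 0.99) in unnamed and 0.96 (0.62 to 1.30) in Paneth-like cells. Lymphocyte-like cells, the background, held 17.0 CPM (7.33 to 33.5) in WT and 41.2 CPM (11.2 to 106) in TKO, from 8 and 4 UMIs. In both libraries the intervals of Paneth-like and enterocyte-like cells overlapped this background. The part of the background in their ratios was not tested. The interval lay above the class median in goblet-like, Paneth-like, tuft-like and unnamed cells, and included the median in the others. The Paneth-like levels were 21.2 CPM (17.8 to 25.0) and 41.1 CPM (34.8 to 48.1), in cells whose median ratio over all genes was itself 0.48.
By cluster, the ratio was above 0 in 10 of the 11 clusters with enough cells in both libraries. It was above the cluster median in 9, with an interval wholly above it in 6 and wholly below it in none. Of all genes compared, 2.43% had their interval above the cluster median in at least 6 of 11 clusters. That limit was the count of Gata6 itself. The share includes genes with as few as 50 UMIs, whose intervals are wide, and genes as abundant as Gata6 were not counted apart. The exception was cluster 12, stem-like cells led by Gkn3 and Lgr5, with 127 CPM in WT and 103 CPM in TKO (−0.29, −0.77 to 0.18), whereas the other stem-like cluster 4, led by Lgr5 and Ascl2, had 82.9 and 109 CPM (0.39). In goblet-like cluster 9 Gata6 was the second member past 1.5-fold, at 49.9 and 89.2 CPM from 58 and 63 UMIs (0.84, 0.30 to 1.38). In other clusterings of the same cells the number of clusters with an interval above the median was between 3 of 9 and 7 of 12. Gata6 overlaps the transcript 1010001N08Rik on the opposite strand.

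**Figure D3:**
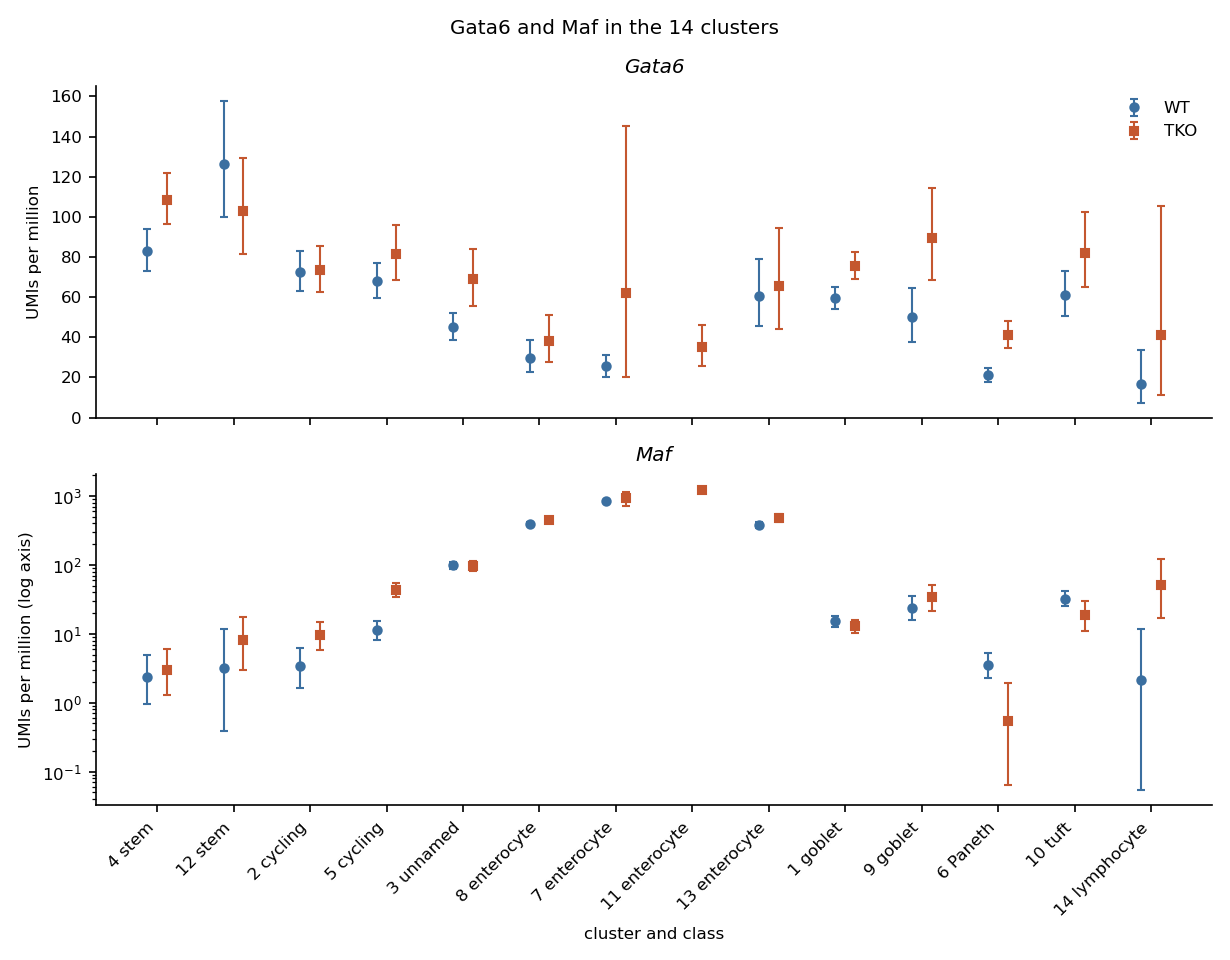
Gata6 (top) and Maf (bottom, log axis) in each cluster and library, as CPM with exact Poisson 95% intervals of counting error, clusters ordered by class from stem-like to lymphocyte-like; a library with under 10 cells in a cluster is not drawn. For Gata6 the TKO point lies above the WT point in each cluster where both are drawn but cluster 12, and Maf goes from 2.37 CPM in WT cluster 4 to 843 CPM in WT cluster 7 and 1218 CPM in TKO cluster 11.

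Maf (ENSMUSG00000055435, GRCm38 chr8:115682942-115707794, minus strand) encodes a large MAF protein of the enterocyte lineage and had the steepest order of the members. Enterocyte-like cells held 635 CPM (616 to 655) in WT and 819 CPM (787 to 851) in TKO, unnamed cells 98.2 (88.4 to 109) and 97.2 CPM (81.4 to 115), and goblet-like cells 16.4 and 15.0 CPM. Stem-like cells held 2.51 CPM (1.15 to 4.77) and 4.15 CPM (2.27 to 6.96), from 9 and 14 UMIs, so the WT level in enterocyte-like cells was 253-fold that in stem-like cells. Thinned to 3000 UMIs, 81.0% of WT and 84.9% of TKO enterocyte-like cells kept a Maf UMI, against 1.28% and 1.85% of stem-like cells. Of the 90 WT and 18 TKO lymphocyte-like cells 1.11% and 11.1% did so, and the TKO figure rests on 5 UMIs before thinning.
Over the clusters listed next, Maf was higher at each step from stem-like to enterocyte-like cells in both libraries. The first WT step, from cluster 4 to cluster 2, rested on 7 and 10 UMIs, too few to rank these clusters. Stem-like cluster 12, with 2 WT and 6 TKO UMIs, is not listed. The place of the unnamed cluster on the path from crypt to villus was not tested. Maf stood at 2.37 and 3.04 CPM in stem-like cluster 4, 3.44 and 9.57 in cycling-like cluster 2 led by Ccne2 and Cdc6, 11.3 and 43.9 in cycling-like cluster 5, 98.2 and 97.2 in the unnamed cluster and 390 and 451 in enterocyte-like cluster 8. It was highest in the largest enterocyte-like cluster of each library, at 843 CPM in cluster 7 of WT and 1218 CPM in cluster 11 of TKO. These hold few cells of the other library, so their difference cannot be told apart from that of the clusters. Cluster 13, led by the villus tip genes Apoa4 and Ada, was lower. It stood at 452 CPM in WT and 463 CPM in TKO in its cells at or under the goblet limit. Maf was thus not highest in the cluster led by tip genes.
In the enterocyte-like class as a whole Maf was higher in TKO by 0.37 on the log2 scale (0.29 to 0.44), above the class median of 0.16 but within 1.5-fold of it. The value was 0.35 without the cells over the goblet limit, at 665 and 847 CPM. Of the clusters that both libraries filled, cluster 8 gave 0.21 and cluster 13 0.36. In cluster 13 Maf stood at 330 and 496 CPM in the cells over the goblet limit and at 452 and 463 CPM in its other cells, so the difference there lay in the former.
In a pair of other classes Maf was past 1.5-fold, in opposite directions. In cycling-like cells it had 51 UMIs in WT and 96 in TKO, or 7.81 CPM (5.82 to 10.3) and 24.6 CPM (19.9 to 30.04), a log2 ratio of 1.65 (1.15 to 2.17). Most of these UMIs were in cluster 5, with 41 and 75 UMIs in 30 of 283 and 43 of 142 cells (log2 ratio 1.95, 1.39 to 2.54), and the 10 richest cells held 51.2% and 48.0% of them. Summed enterocyte markers were also higher there in TKO, at 5318 CPM against 2785 CPM in WT, and their part in the result was not tested. The ratio in cycling-like cells was 1.63 (1.11 to 2.18) without the cells of highest doublet score, and between 1.16 and 1.94 in the other clusterings.
In tuft-like cells Maf had 64 UMIs in WT and 18 in TKO, or 32.5 CPM (25.0 to 41.5) and 18.7 CPM (11.1 to 29.6), a log2 ratio of −0.77 (−1.64 to −0.02). They came from 27 of 148 and 8 of 48 cells, and the 10 richest cells held 67.2% of them in WT and 100% in TKO. Summed enterocyte markers were lower in the same cells of TKO, at 2516 CPM against 5746 CPM in WT, and their part was not tested. Without the cells of highest doublet score the ratio was −0.55 (−1.49 to 0.24), no longer past 1.5-fold. In the other clusterings it was between −1.07 and −0.52. Its interval included 0 with variable genes by vst (−1.18 to 0.0006) and with the members kept among them (−1.16 to 0.06). It also did so when cells of highest doublet score were left out of the clustering (−1.65 to 0.20). At a resolution of 1.2, a tuft-like cluster led by Gnat3 held 19 WT cells and 1 TKO cell, and its part was not tested.
Maf overlaps the antisense gene Gm15655.

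Enterocyte-like cells were also ordered by a villus score, the share of UMIs of known villus tip genes among tip and bottom genes, which included no member. The score was cut into 5 bins with 140, 168, 174, 141 and 102 cells in WT and 82, 56, 50, 81 and 122 cells in TKO. A bin is a range of the score and not a cell type. Between the outer bins the median UMIs per cell went from 9765 to 4809 in WT and from 5604 to 5125 in TKO.
Klf4 was higher in each successive bin in both libraries, through 123, 205, 301, 434 and 787 CPM in WT and 115, 169, 208, 357 and 633 CPM in TKO. Its log2 ratio of the top over the bottom bin was 2.67 (2.42 to 2.93) in WT and 2.45 (2.12 to 2.81) in TKO. Without the cells over the goblet limit it still ran from 110 to 742 CPM and from 86.6 to 548 CPM. Klf4 was lower in TKO than in WT in each of the 5 bins, although the sums over the class were nearly equal, and the top bin held 122 of 391 TKO cells against 102 of 725 WT cells. The interval of this ratio included 0 in bin 1 (−0.48 to 0.28) and bin 2 (−0.63 to 0.05). Reg3g, a bottom gene of the score, was also lower in TKO in each bin, at 58803 and 32939 CPM in bin 1. Equal bins thus need not hold like cells, and the part of Reg3g was not tested. Maf went through 375, 568, 786, 794 and 858 CPM in WT and 393, 656, 814, 1250 and 1016 CPM in TKO, with top over bottom ratios of 1.19 (1.02 to 1.37) and 1.37 (1.17 to 1.57). Maf thus differed little between the third and last bins in WT and was highest in the fourth bin in TKO, unlike Klf4, which was highest in the last bin of both.
Klf5 ran the other way, through 210, 137, 107, 72.7 and 59.8 CPM in WT and 250, 189, 154, 68.5 and 64.6 CPM in TKO, with ratios of −1.79 (−2.37 to −1.29) and −1.94 (−2.45 to −1.47). Cdx1 went from 96.8 to 38.1 CPM in WT (−1.32, −2.08 to −0.68) and from 93.9 to 43.1 CPM in TKO (−1.11, −1.79 to −0.49). A crossing of the KLF pair was thus present within the enterocyte-like class as well as between classes. In the lowest bin Klf5 exceeded Klf4 in both libraries (210 against 123 CPM and 250 against 115 CPM), and in the highest bin Klf4 stood far above Klf5. Klf5 in the highest bin did not exceed its level in lymphocyte-like cells (67.9 CPM in WT and 113 CPM in TKO). Cdx1 in that bin did not exceed its own lymphocyte-like level either (38.2 and 92.7 CPM). Their levels at the top thus could not be told apart from background.
Gata6 had 29.9, 25.9, 28.1, 31.7 and 65.3 CPM in WT and 37.6, 36.6, 39.0, 30.3 and 60.3 CPM in TKO, so it was flat except in the top bin (ratios 1.13, 0.46 to 1.79, and 0.67, −0.04 to 1.43). Cdx2 was lower at the top, from 153 to 92.5 CPM in WT and from 146 to 106 CPM in TKO (−0.71 and −0.46). Hnf4g went from 62.4 to 36.3 CPM in WT and from 89.9 to 66.0 CPM in TKO (−0.75 and −0.44). It was past 1.5-fold in WT only, and the difference between the libraries was not tested. Hnf4a stayed between 248 and 330 CPM in WT and between 220 and 275 CPM in TKO.
In all, 5 members were past 1.5-fold from the median in the same direction in both libraries: Klf4, Maf and Gata6 higher and Cdx1 and Klf5 lower at the top. Of all genes compared, 26.3% were higher and 27.4% lower in WT, and 25.6% higher and 26.3% lower in TKO.

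**Figure D4:**
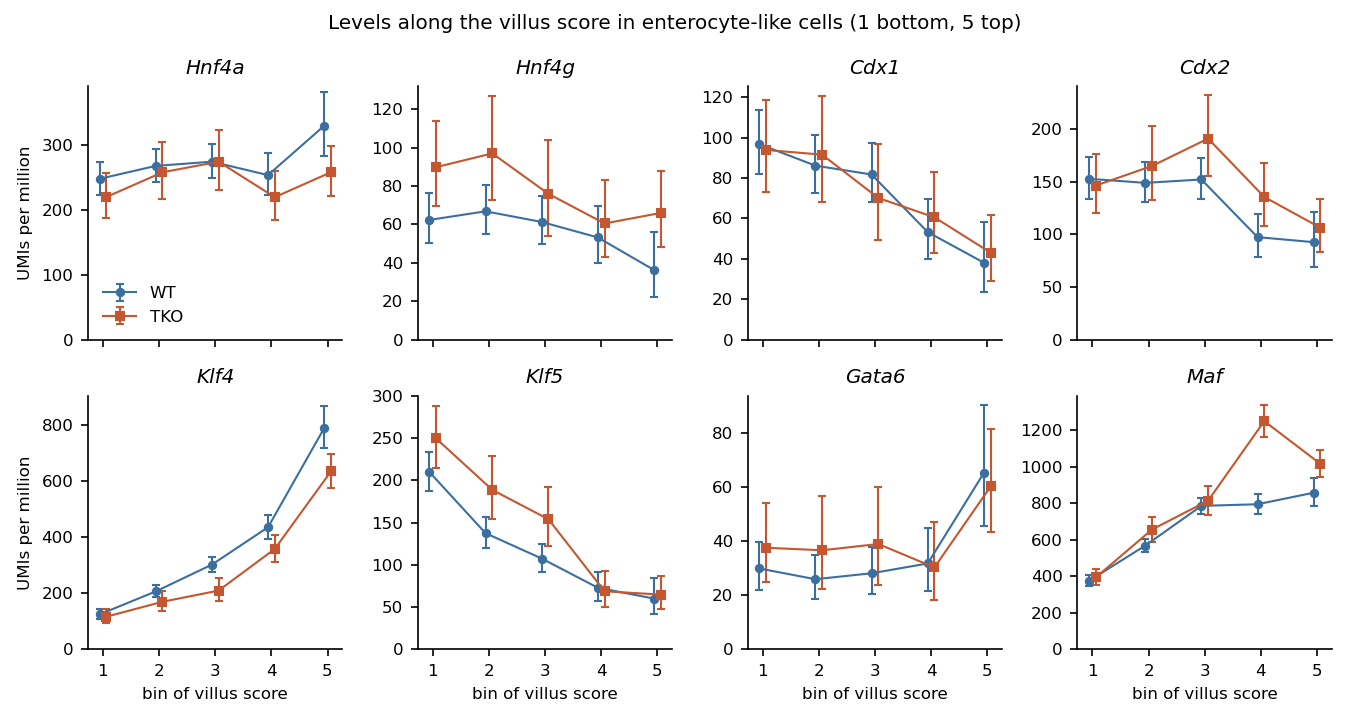
Level of the members (CPM, with exact Poisson 95% intervals of counting error) in enterocyte-like cells over 5 bins of the villus score, from bottom to tip, in WT and TKO with 1 library a genotype. Klf4 goes from 123 to 787 CPM in WT and from 115 to 633 CPM in TKO, Klf5 from 210 to 59.8 and from 250 to 64.6 CPM, and Hnf4a stays between 220 and 330 CPM.

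Likeness was described by Pearson's r of log2(CPM + 1), among the members and between each member and 9840 other genes. Each r was taken over the 25 combinations of cluster and library with at least 30 cells. These points share libraries, depth and cell types and are not independent. The members most alike were Cdx2 and Hnf4a (r = 0.92), Klf5 and Cdx2 (0.89), Cdx2 and Hnf4g (0.88) and Hnf4g and Hnf4a (0.85), all low in Paneth-like cells. Gata6 was most like Cdx1 (0.75) and Maf most like Klf4 (0.76), while Klf5 and Klf4 gave −0.09 and Maf and Gata6 −0.27.
The genes nearest to each member over all genes were Itgb1, Mfn1 and Akr1a1 for Hnf4a (0.95 each), Hook2 (0.95), Gucy2c and Tmem41a (both 0.93) for Hnf4g, Alg14 (0.94), Pxmp2 (0.92) and Ptprk (0.91) for Cdx1 and Plcb3 (0.96), Npepps and Scrn2 (both 0.95) for Cdx2. Klf4 was nearest to Rnf103, Ptprr and Neat1 (0.96, 0.95 and 0.95), and Klf5 to Uqcr11, Atp5l and Ndufb4 (0.96, 0.96 and 0.95). Gata6 had the weakest neighbours, Evi5 (0.92), Itga6 and Pick1 (both 0.88), and Maf the closest, Spink1 (0.99), Cyp3a13 and Clic5 (both 0.98).
Paired members were also counted in single enterocyte-like cells after thinning. Klf4 and Klf5 were both seen in 12% of WT and 12.3% of TKO cells, where the product of their separate shares gives 14.6% and 16.7%. For Hnf4a and Hnf4g the shares were 7.86% and 8.18% (product 7.95% and 9.05%), and for Cdx1 and Cdx2 5.79% and 5.63% (product 5.21% and 5.70%). Joint detection of the HNF4 and CDX pairs was thus near the product, and that of the KLF pair below it in both libraries.

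Relatives of the members from the same families were examined next, of which 13 of 26 were abundant enough to compare. For these and the lists that follow, the shares over all genes were 4.23% past 1.5-fold higher and 6.90% lower. Of these relatives, 1 was past 1.5-fold higher and none lower: Klf11, a TGF-beta-induced KLF, at 3.67 CPM in WT and 6.19 CPM in TKO (log2 ratio 0.75, 0.41 to 1.1). Klf10, induced by the same signal, was just short of it at 24.2 and 38.5 CPM (0.67, 0.53 to 0.80).
Gata5, the other GATA gene of the gut epithelium, was also higher in TKO, with 24.9 and 32.1 CPM (0.37, 0.23 to 0.51), and stood at 46.1 and 59.4 CPM in enterocyte-like cells. Blood GATA genes were all but missing, with 0 UMIs of Gata1 and 6 and 0 of both Gata2 and Gata3. Klf3 (110 and 117 CPM), Klf6 (83.8 and 82.7), Klf13 (53.3 and 52.9), Mafg (39.3 and 46.2), Klf9 (27.9 and 34.1), Klf7 (18.3 and 20.1), Mafk (12.4 and 13.4), Klf16 (7.63 and 9.33) and Maff (3.99 and 4.39) had log2 ratios between −0.02 and 0.29.
Genes of the pathway around the members were counted in lists. Among 28 of 29 cofactors and other transcription factors of absorptive cells, 2 were past 1.5-fold higher and 3 lower, with a median log2 ratio of 0.14, against 0.15 over all genes. Hes1, a Notch target that favours the absorptive fate, had 52.1 CPM in WT and 108 CPM in TKO (1.05), and Foxa2 5.35 and 10.5 CPM (0.98). Prdm1, a factor known from the immature gut, had 4.75 and 2.39 CPM (−0.98) and Batf2 21.9 and 11.4 CPM (−0.94).
The lipid absorption genes, many of them known HNF4 targets, had 0 higher and 4 lower of 22, with a median of −0.12. Fabp2, the intestinal fatty acid binding protein, had 705 and 1102 CPM (0.64), whereas its liver-type relative Fabp1 had 33.2 and 4.60 CPM (−2.84). At a resolution of 1.2, Fabp1 was among the leading genes of a tuft-like cluster with 19 WT cells and 1 TKO cell. The part of these cells in the Fabp1 sums was not tested. Plin2 had 20.6 and 22.6 CPM and Apoa4 23.8 and 14.8 CPM. Brush border genes had 2 higher and 3 lower of 28 (median −0.02), with the peptidase gene Naaladl1 at 91.7 and 180 CPM (0.97) and Alpi at 9.02 and 15.2 CPM (0.75) above, and Espn at 107 and 57.7 CPM (−0.89) and Mep1b at 140 and 92.8 CPM (−0.59) below.
Genes known from regions of the gut were counted in the same way, beside 4.23% higher and 6.90% lower over all genes. Of 11 proximal genes, 4 were higher and 2 lower, with a median of 0.53. Slc30a10, a manganese exporter, had 7.40 and 16.9 CPM and Gsta4 9.10 and 20.8 CPM, while Adh6a (−0.80) and Fabp1 were lower. Of 11 ileal genes 1 was higher and 1 lower (median 0.02): Cubn, part of the receptor for cobalamin, had a log2 ratio of 1.16 and Slc51b, which exports bile acids, stood at 253 and 157 CPM (−0.69), with Arg2 at 0.41 and Fgf15 at −0.40. Of 3 colonic genes Retnlb was lower, at 367 and 27.5 CPM (−3.74), while Mettl7b stood at 0.24.
Of the genes behind the villus score, 3 of 10 tip genes were lower (median 0.07), with Ceacam20 at −0.65 and Apoa4 at −0.68 lowest and Egfr at 0.43 and Ada at 0.34 highest. Of 11 bottom genes 5 were lower (median −0.20), among them Reg3g at 21844 and 11738 CPM (−0.90) and Gsdmc4 at 300 and 84.3 CPM (−1.83), with Cbr1 (0.18) and Nlrp6 (0.11) highest. The genes that set the score thus themselves differed between the libraries, and equal bins need not hold like cells of both.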

How the data were processed

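Cells of the ileal epithelium were profiled with 10x Genomics Single Cell 3′ v2 chemistry. The authors processed the reads with Cell Ranger against mm10 and deposited UMI counts per gene and barcode, 1 matrix a library; the depth scaling that the methods describe after this step was not in these values. No column of per-sample values was left unused (0). Here cells were clustered after the study's methods with Seurat 5.3.0 in R 4.3.3 (values log-normalized, variable genes picked on mean and dispersion with the members removed, 14 principal components, resolution 0.8), and clusters were named from fixed markers, with at least 3 detected. Sums, ratios and intervals were computed with Python 3.11.15, numpy 2.4.6, scipy 1.17.1 and pandas 2.3.3, and the ratio script was tested on simulated data. Scrublet, run through scanpy 1.11.5, called 15 WT and 3 TKO cells, too few to have worked, so no doublets were removed; leaving out the top 5% of scores was an alternative. A gene was compared where its UMIs over both libraries came to 50 or more, and was called when its log2 ratio lay more than 1.5-fold from the median gene. Since each genotype had 1 library, no p-value was given. The members and lists were chosen with earlier results of these data known. Named genes were all members, relatives with at least 50 UMIs, the 2 highest and 2 lowest ratios of each list with at least 100 UMIs, and the 3 genes most like each member. Some genes that this rule names are not reported here. Alternatives covered scaling, filters, fold, clustering and left-out cells.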

Additional observations from a re-analysis of the deposited data

Results flagged for a closer look

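Maf in enterocyte-like and in tuft-like cells went in opposite directions between the libraries, with log2 ratios of TKO over WT of 0.37 (0.29 to 0.44) and −0.77 (−1.64 to −0.02). Maf in cycling-like cells, at 1.65 (1.15 to 2.17), was likewise opposite to tuft-like cells. The differences between the classes were not tested, and each class has 1 sample a genotype. The tuft-like value rested on 64 and 18 UMIs. Its interval included 0 without the cells of highest doublet score (−1.49 to 0.24) and in some of the other clusterings.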

How the results depend on the processing

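No paired analysis was possible because each genotype had 1 library, and no replicate could be left out. The number of members past 1.5-fold was 0 under each alternative run, over all cells and in enterocyte-like cells. The number of list genes past the fold was 30, and 10 with a 2-fold limit. Members were also counted, out of 8, whose highest class in WT and in TKO each stayed that of the main clustering. This number was 3 with 2000 variable genes by vst, where Klf4 and Gata6 were among the members that changed class. It was 5 without the study's genotype genes among the variable genes and 5 with the mean over cells. It was 6 at a resolution of 0.4, at a resolution of 1.2 and without the cells of highest doublet score. It was 8 with the members kept among the variable genes and without the cells rich in goblet markers. Directions turned for Hnf4a (0.05), which came to −0.0037 with totals that left out mitochondrial and the 20 most abundant genes, −0.10 with median scaling, −0.0084 with the mean over cells and −0.052 with thinned cells. They turned for Klf5 (0.07) too, at −0.086 with median scaling, −0.023 with the mean over cells and −0.016 with thinned cells. The sign also changed for values whose interval included 0: over 12 alternatives Cdx2 lay between −0.10 and 0.06, Klf4 between −0.19 and 0.06 and Maf between −0.14 and 0.24. Over the same alternatives Gata6 stayed between 0.32 and 0.48, Hnf4g between 0.06 and 0.23 and Cdx1 between −0.24 and −0.06. The causes were not tested. Giving both libraries the same make-up of classes and leaving out cells rich in goblet markers were alternatives chosen after seeing the data. Depth limits Gata4 in all classes and Maf in crypt, Paneth-like and lymphocyte-like cells.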

Other observations

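Cells named enteroendocrine-like were found only when 2000 variable genes were chosen by vst, with 41 cells in WT and 27 in TKO. They had 104 and 100 CPM of Gata6, a level near that of stem-like cells, 222 and 175 CPM of Cdx1 and 205 and 184 CPM of Hnf4a. Klf4 stood at 45.7 and 34.9 CPM and Maf at 10.9 and 6.99 CPM in them, both far below enterocyte-like cells. Klf6, a KLF of the early growth response, stood at 257 CPM in WT and 315 CPM in TKO enterocyte-like cells, so that it was close to Klf4 there.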
